A study of Drosophila melanogaster with 3 samples.

Results

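Single-promoter peaks are binding sites of the ecdysone receptor EcR whose summit, the base of highest signal in a peak, lies within 500 bp of an annotated transcript start of exactly 1 protein-coding gene. Noncoding starts nearby were disregarded. Of the 9095 peaks in the optimal list, 2475 met this rule (27.2%). They belonged to 1838 genes, which is 13.6% of the 13470 protein-coding genes that have at least 1 base within 500 bp of their own starts and of no other coding gene's start, called eligible genes here. The remaining peaks were 516 at promoters shared by neighbouring coding genes (5.67%) and 6104 with no coding start within 500 bp (67.1%). In the replicates' own lists, each kept to its 9095 strongest peaks, the single-promoter share was 27.6%, 28.2% and 26.5% in replicates 1, 2 and 3, with a mean of 27.4% ± 0.886 (SD, n = 3).

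The data are chromatin immunoprecipitation sequencing (ChIP-seq) libraries from whole Drosophila melanogaster pupae aged 24 hours, with males and females pooled. The animals came from the transgenic line EcR-GFP, in which EcR fused to eGFP at its C terminus is stably expressed, and chromatin was recovered with an antibody against GFP per the sample descriptions, although the antibody field of the labels reads EcR. The 3 biological replicates form the only group, so no site can be called gained or lost. What drives the tagged copy, and whether the line keeps untagged EcR, is not given in the sources used here. Whole animals mix all cell types, and binding in fewer cells cannot be told apart from weaker binding in each cell. Binding gives no expression, so no cell type could be checked by its markers. The sequencing depth is unknown. Peaks were therefore compared only by the rank of the authors' deposited signal within a list, where rank 1 is the strongest, and by signal percentile, where 100 is the strongest. All positions are in dm6, release 6 of the genome.

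EcR is a nuclear receptor that binds DNA together with its partner ultraspiracle (usp) and is switched by ecdysone, the steroid hormone that times moulting and metamorphosis. In the classical scheme, the receptor pair acts first on a small set of early genes, many of which encode transcription factors, and these act on later genes in each tissue. The pair is known to bind an inverted repeat of receptor sites with a 1-base spacer, while the GAGA repeat is the site of GAGA factor, a protein known for opening chromatin at fly promoters.

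Sequences at 9 summits are shown first, because they illustrate 3 kinds of member: those with the receptor's inverted repeat, those with a GAGA repeat, and those with neither. Each is given 5′ to 3′ on the strand of the gene, and was read from the RefSeq sequence of the same genome release. The window is 60 bp on each side of the summit, extended where a repeat reaches beyond it. In the first 4, which are the strongest members with an exact inverted repeat on the chromosomes from which sequence was printed, capitals mark the repeat. Pfas encodes an enzyme of purine synthesis, Ypel a yippee-like protein, Sec16 a scaffold of endoplasmic reticulum exit sites, and SP1029 a protein related to aminopeptidases.
Pfas (chr2L:6046059-6046179, minus strand): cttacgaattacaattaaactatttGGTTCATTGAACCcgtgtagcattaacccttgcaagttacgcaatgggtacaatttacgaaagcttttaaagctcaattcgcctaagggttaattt
Ypel (chrX:10209871-10209991, minus strand): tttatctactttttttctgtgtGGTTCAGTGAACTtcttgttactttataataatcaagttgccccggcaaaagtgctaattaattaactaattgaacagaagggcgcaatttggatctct
Sec16 (chrX:12596848-12597016, plus strand): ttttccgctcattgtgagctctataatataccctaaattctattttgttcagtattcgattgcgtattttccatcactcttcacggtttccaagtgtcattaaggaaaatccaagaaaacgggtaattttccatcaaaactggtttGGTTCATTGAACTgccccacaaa
SP1029 (chr3R:29249344-29249464, minus strand): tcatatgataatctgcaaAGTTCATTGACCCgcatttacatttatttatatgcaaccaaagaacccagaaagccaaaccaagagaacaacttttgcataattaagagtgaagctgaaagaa

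The next 3 are the strongest members on the same chromosomes with a GAGA repeat inside this window, and capitals mark GAGAGAG or its complement CTCTCTC. Eip75B encodes the early-gene nuclear receptor E75, Alh a relative of the mammalian AF10 chromatin protein, and PRL-1 a phosphatase.
Eip75B (chr3L:17971269-17971389, minus strand): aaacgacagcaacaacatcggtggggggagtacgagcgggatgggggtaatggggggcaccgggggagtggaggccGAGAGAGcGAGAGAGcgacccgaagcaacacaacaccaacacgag
Alh (chr3R:7107921-7108041, minus strand): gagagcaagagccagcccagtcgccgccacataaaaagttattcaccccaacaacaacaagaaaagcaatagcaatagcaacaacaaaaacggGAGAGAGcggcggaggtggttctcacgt
PRL-1 (chr2L:16255684-16255804, minus strand): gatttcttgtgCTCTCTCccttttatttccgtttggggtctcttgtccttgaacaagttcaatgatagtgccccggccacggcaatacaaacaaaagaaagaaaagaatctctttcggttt

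The last pair are the strongest members on those chromosomes with no inverted repeat, no single receptor site and no GAGA repeat within 100 bp of the summit, so nothing is in capitals. Ptpmeg2 encodes a protein tyrosine phosphatase.
Ptpmeg2 (chrX:9646110-9646230, minus strand): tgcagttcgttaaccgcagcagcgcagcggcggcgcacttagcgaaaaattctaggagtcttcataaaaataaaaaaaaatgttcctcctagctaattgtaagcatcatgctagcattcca
CG8031 (chr3R:13011020-13011140, minus strand): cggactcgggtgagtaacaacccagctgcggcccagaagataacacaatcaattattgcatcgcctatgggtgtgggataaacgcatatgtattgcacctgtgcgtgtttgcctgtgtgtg

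The strongest single-promoter peak lay at CG30089 (FBgn0050089, peak at 2R 15734816–15735779), 199 bp upstream of an inner start and within a coding exon of a longer transcript, with rank 13 in the optimal list. Its ranks were 16, 15 and 10 in replicates 1, 2 and 3. MESR6 (FBgn0036846, 3L 19092106–19093246) followed with rank 16, its summit 14 bp downstream of the single start in the 5′ UTR, and ranks of 11, 11 and 24. Eip75B (FBgn0000568, 3L 17970377–17973886) had rank 17 and ranks of 15, 16 and 19 in the replicates, with the summit 110 bp downstream of a start, at the GAGA-rich sequence shown above. The leading 3 thus lay within the first 24 ranks in every replicate.

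Ptpmeg2 had rank 27 (38, 23 and 26 in the replicates) and CG8031 rank 28 (24, 19 and 41). Oscillin, related to glucosamine-6-phosphate deaminases, had rank 36 (30, 28 and 51), and sgg, the fly glycogen synthase kinase 3 of Wnt and clock signalling, had rank 40 (44, 40 and 39). The sgg summit lay in an intron, 269 bp upstream of 1 of the gene's 11 annotated starts. CG4586 had rank 42 (39, 29 and 60). The adaptor gene rdx, which targets the Hedgehog effector Ci for degradation, had rank 51 (40, 49 and 59). Acbp1, an acyl-CoA binding protein, had rank 57 (45, 55 and 68), and CG6287 had rank 60 (65, 69 and 55). The ecdysone-responsive nuclear receptor gene Hr4 (X 1941157–1942488, 100 bp upstream of its start) had rank 63 (70, 43 and 74). The zinc-finger gene jing had rank 64 (66, 61 and 62), Alh rank 65 (63, 82 and 61), and CG11899 rank 76 (57, 65 and 101). All 15 had a summit within 100 bp among the strongest 9095 peaks of every replicate. An inverted repeat with at most 1 mismatch lay within 100 bp of 4 of these 15 summits, those of CG30089, CG4586, Acbp1 and Hr4. A GAGA repeat lay within 100 bp of 3, those of Eip75B, Oscillin and Alh. Over all members the shares were 2.38% for the inverted repeat and 14.7% for the GAGA repeat. Among the 619 strongest members they were 6.79% and 17.4%.

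**Figure D1:**
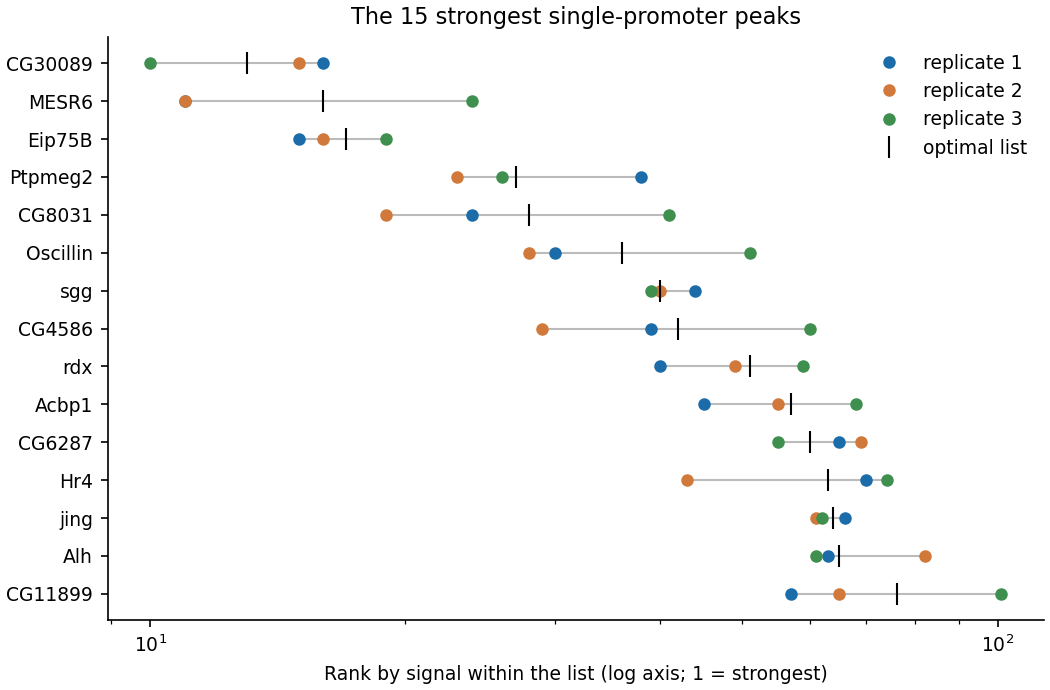
Ranks by signal (horizontal log axis, 1 = strongest) of the 15 strongest single-promoter peaks, one row per gene; coloured points are the replicates and the black mark is the optimal list. For MESR6, replicates 1 and 2 coincide at rank 11. The ranks run from 10 for CG30089 to 101 for CG11899, both in replicate 3.

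Genes of the ecdysone response carried single-promoter peaks in 21 of 29 cases (72.4%), against 13.6% of all eligible genes. The share was 75.9%, 72.4% and 69.0% in the own lists of replicates 1, 2 and 3. These genes had a median of 3 starts, against 1 for all eligible genes, and so offer more promoter sequence. Per 100 kb of eligible sequence they held 75.4 single-promoter peaks, against 18.5 over all eligible genes. For 18 of the 21, the strongest such peak was among the strongest peaks of all 3 replicates, as it was for 1245 of all 1838 member genes.

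The 6 nuclear receptor genes of the list with a single-promoter peak lay between ranks 17 and 4079. Eip75B and Hr4 are given above. EcR itself had its strongest single-promoter peak at rank 266 (244, 211 and 320 in the replicates), 130 bp upstream of a start inside the gene (2R 6131625–6132637). Eip78C had rank 1295 (1393, 878 and 1685), 138 bp upstream of a start. The competence factor gene ftz-f1 had rank 2858 (2573, 2418 and 3925), 128 bp upstream. Hr38 had rank 4079 (5549, 4871 and 3389), 113 bp upstream. For these 6 genes all replicates placed the peak within the 9095 strongest.

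Among the other transcription factors, Sox14, a primary response gene, had rank 202 (270, 275 and 162), with the summit 245 bp upstream of a start in a wide region at 2R 23977711–23983475. The bZIP repressor vri had rank 331 (280, 388 and 355). Eip74EF, the early-gene Ets factor, had rank 403 (476, 409 and 388), and its summit lay 1 bp downstream of a start. Blimp-1, a repressor that times ftz-f1, had rank 1022, and br, the Broad zinc-finger factors of the pupal programme, had rank 1241 (1914, 1281 and 1058). Eip93F, the E93 factor of adult specification, had rank 1259 (1280, 1671 and 1164), and the EcR coactivator gene tai had rank 1476 (1462, 1481 and 1630). The zinc-finger gene crol stood low, at rank 8238 (8407, 9536 and 7557), and in replicate 2 it fell outside the 9095 strongest.

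The genes of the list outside transcription with such a peak lay between ranks 2461 and 7141. ImpE2 had rank 2461 (2283, 3028 and 2616). Of the 21 genes, ImpE2 and Hr4 had an inverted repeat at up to 1 mismatch at their strongest promoter peak. The repeat was at 2.38% of all members and at 6.79% of the 619 strongest. E23, an ABC transporter gene, had rank 2595, and MsrA, a methionine sulfoxide reductase gene, rank 2901. ImpL2, a secreted insulin antagonist, had rank 5436, ImpE3 6177, Eip63E, a cyclin-dependent kinase gene, 6304, and the lactate dehydrogenase gene Ldh 7141. In replicate 3, ImpE3 and Ldh had ranks of 9780 and 9383, beyond the 9095 strongest. No single-promoter peak was found at Cth, DopEcR, Eip63F-1, Hr3, Hr39, ImpE1, Kr-h1 and usp.

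Beyond the list above, the nuclear receptor family had a single-promoter peak at 10 of 21 genes (47.6%), of which 6 are the receptors just named. The rest were Hnf4, a regulator of lipid use (rank 357; 392, 500 and 295), svp (rank 707), Hr78 (rank 2114) and ERR, a regulator of sugar metabolism (rank 6824), which had no summit within 100 bp in replicate 1.

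Several developmental signalling pathways had a share of genes above 13.6%. For Notch it was 8 of 15 genes (53.3%), led by E(spl)mbeta-HLH, a Notch target gene (rank 517; 587, 588 and 460), the coactivator mam (rank 1711; 1676, 1568 and 2058) and the protease kuz (rank 3948; 6358, 5132 and 2892). For Dpp it was 7 of 14, led by shn (rank 705; 771, 930 and 586), the ligand gene dpp (rank 1823; 1616, 1831 and 2180) and the repressor brk (rank 2304). For the EGF receptor pathway it was 7 of 14, led by the ligand spi (rank 1094; 1164, 922 and 1317), the Ets repressor aop (rank 1288) and Ras85D (rank 1924). Wnt and Hedgehog genes had 8 of 19 (42.1%), with sgg, the receptor fz (rank 1353; 1612, 1344 and 1348) and the receptor ptc (rank 2740). JNK genes had 4 of 11 (36.4%), led by the phosphatase puc (rank 370; 448, 316 and 409), the Fos gene kay (rank 1453) and the kinase msn (rank 4414).

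Weaker peaks made up most of the Hippo count, which was 7 of 14 (50%), led by kibra (rank 3025), the kinase hpo (rank 5258) and sd (rank 6349). The list as drawn up counts dlp (rank 6624), so the 7 depend on that choice. Within the 4547 strongest optimal peaks, kibra alone remained, a count of 1 of 14 (7.14%), close to the 7.03% of all eligible genes. The Notch and the Wnt and Hedgehog counts were 5 each on peaks that recurred in replicates 2 and 3, and also on those that recurred in replicates 1 and 3. These were 33.3% of Notch genes and 26.3% of Wnt and Hedgehog genes, against 10.6% and 10.4% of all eligible genes. Insulin and TOR genes had 5 of 16 (31.3%), led by sgg and the kinase Pdk1 (rank 360; 326, 308 and 433), with the receptor InR at rank 2737 (3702, 2841 and 2614). Actin and small GTPase regulators had 13 of 23 (56.5%), led by the profilin gene chic (rank 427; 347, 309 and 672), the myosin light chain gene sqh (rank 533; 751, 401 and 561) and Act5C (rank 2094). In the replicates' own lists the actin share was 47.8%, 60.9% and 47.8%. Cell cycle genes had 6 of 18 (33.3%), among them Cdk4 (rank 1491; 1487, 1626 and 1506), E2f1 (rank 3094) and Dp (rank 4688). On peaks that recurred in replicates 2 and 3 the cell cycle count was 4 (22.2%, against 10.6% of all eligible genes). Chromatin genes and coregulators had 7 of 26 (26.9%), among them the dioxygenase Tet (rank 741; 846, 502 and 909), the corepressor CtBP (rank 2040) and Nurf-38 (rank 3281).

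Of the cell death genes, 7 of 19 had a single-promoter peak (36.8%), and all 7 were among the strongest peaks of every replicate. The 7 include Dif (rank 1523) and so depend on how the list was drawn up. The apoptosome gene Dark had rank 168 (142, 160 and 197), the death activator rpr rank 584 (694, 628 and 511), with its summit 5 bp upstream of the start, and the death inhibitor Diap1 rank 649 (732, 613 and 688). Autophagy genes had 8 of 25 (32%), of which only Atg7 was strong, at rank 412 (376, 371 and 497). Vps15 stood at rank 4734 and Atg13 at rank 6407. The autophagy count was 5, 4 and 4 on peaks that recurred without replicates 1, 2 and 3. These were shares of 20%, 16% and 16%, against 10.6%, 10.4% and 10.8% of all eligible genes. Within the 4547 strongest peaks the autophagy count was 1 (4% against 7.03% of all eligible genes). Of the juvenile hormone genes, 5 of 11 had a peak (45.5%), led by tai and the hormone receptor gce (rank 1862; 2379, 1700 and 3491), then Jheh1 (rank 5148). This count was 3 without replicate 3 (27.3%, against 10.8% of all eligible genes). Circadian clock genes had 3 of 10 (30%), namely sgg, vri and Pdp1 (rank 3186). The clock genes had a median of 2 starts, against 1 for all eligible genes. They held 20.1 peaks per 100 kb of eligible sequence, close to the 18.5 of all eligible genes. Genes can belong to several lists, as sgg, vri and tai do, so the lists are not separate.

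Lists of housekeeping machines are given beside the same overall share of 13.6%. Translation initiation factors had 8 of 43 (18.6%), led by eIF4H1 (rank 685; 669, 733 and 691), eIF5B (rank 2224) and eIF3f1 (rank 4007). This share lay below that of all eligible genes with promoters of 1000 bp (9.76% against 14.9%) and was 6.98% against 7.03% in the strongest 4547 peaks. Mediator had 3 of 27 (11.1%), namely MED19 (rank 1206), skd (rank 1386) and MED6 (rank 1919). Its density was 22.6 peaks per 100 kb of eligible sequence, above the 18.5 of all eligible genes. All 3 were within the strongest 4547 peaks, where the share over all eligible genes was 7.03%, and the count was also 3 when any 1 replicate was left out, where the overall share was between 10.4% and 10.8%. With promoters of 1000 bp the Mediator count was 1 of 23 (4.35% against 14.9%). Rab GTPases had 4 of 36 (11.1%), led by Rab32 (rank 1112), Rab19 (rank 4924) and Rab5 (rank 5021), and with promoters of 1000 bp their share was above that of all eligible genes (16.7% against 14.9%). The vacuolar proton pump had 3 of 33 (9.09%), namely Vha13, Vha16-1 and Vha100-2, and aminoacyl-tRNA synthetases 2 of 31 (6.45%), GluProRS and AspRS. Cytosolic ribosomal proteins had 4 of 90 (4.44%), with RpS28b first at rank 5026, then RpL30 (rank 6308) and RpS16 (rank 6532). With promoters of 250 bp their count was 8 of 91 (8.79%, against 12.3% of all eligible genes). The proteasome had 2 of 48 (4.17%), Rpn10 and Rpn1. The synthetase and proteasome counts were each 1 on peaks that recurred without replicate 2 or without replicate 3. These were shares of 3.23% and 2.08%, where the overall share was 10.4% and 10.8%. The respiratory chain had 2 of 88 (2.27%), the succinate dehydrogenase gene SdhA (rank 702; 697, 699 and 741) and ATPsynC (rank 1991). Mitochondrial ribosomal proteins had 0 of 68 and nucleoporins 0 of 25, with only 29772 and 11678 bases of eligible sequence. Per 100 kb of eligible sequence, cytosolic ribosomal proteins held 7.55 peaks, the proteasome 6.41 and the respiratory chain 4.71. The vacuolar proton pump held 11.3, synthetases 11.6, Rab GTPases 17.2 and translation initiation factors 24.3, against 18.5 for all eligible genes.

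Over all 33 lists, 20 had a higher share of genes than all eligible genes, 19 held more peaks per 100 kb of eligible sequence, and 18 did both. The lists were chosen with earlier results of these data known, so these counts also depend on which lists were picked. No test was run on these counts.

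**Figure D2:**
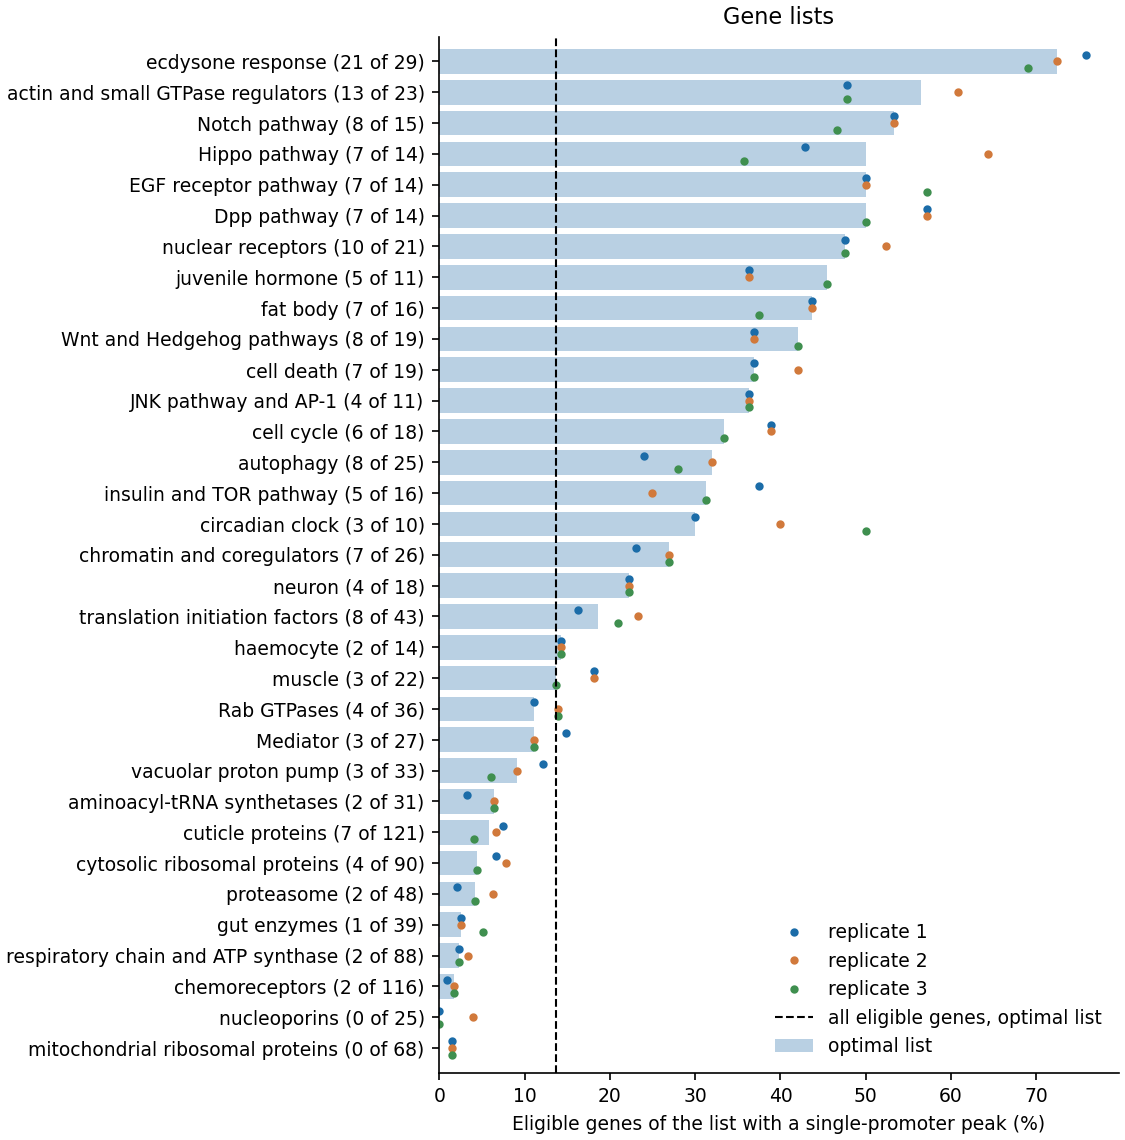
Share of each list's eligible genes with a single-promoter peak (horizontal axis, %), with bars for the optimal list, coloured points for the own lists of the 3 replicates and a dashed line at 13.6% for all eligible genes. The ecdysone response is highest, at 72.4%, and mitochondrial ribosomal proteins and nucleoporins are at 0.

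Genes with many starts held more of these peaks. A single-promoter peak was found at 807 of 9863 eligible genes with 1 start (8.18%), 525 of 2486 with 2 starts (21.1%), 248 of 682 with 3 starts (36.4%) and 258 of 439 with 4 or more starts (58.8%). Each start adds sequence in which a summit counts, so the density is given as well. It was 12.1 peaks per 100 kb of eligible sequence at genes with 1 start, 23.2 with 2, 27.9 with 3 and 34.1 with 4 or more. At genes with several starts, 1041 of 1554 members (67.0%) were nearest to an inner start. Inner starts made up 60.5% of the starts of all protein-coding genes with several starts. The 2 shares are not matched, because 520 of the 1554 members were at genes with 4 or more starts, where more starts are inner. Members nearest to an inner start lay a median of 2409 bp from the outermost start.

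Most member genes had 1 such peak (1369), 359 had 2, 72 had 3 and 38 had 4 or more. Eip75B had the most, with 8 summits at a gene of 7 annotated starts. They ranked 17, 147, 231, 1255, 1388, 1397, 1417 and 6485 in the optimal list, and 2 pairs of them share a wide region. The summit at rank 1388 had no summit within 100 bp in replicate 3, and the other 7 were among the strongest in every replicate. Ptpmeg2 had 6, of which those at ranks 27 and 173 (163, 148 and 199 in the replicates) stood far above the rest. Rtnl1, a reticulon of the endoplasmic reticulum, had 6 between ranks 1790 and 6745, and SNF4Agamma, a subunit of the AMP-activated kinase, had 6 between 941 and 6716. With 5 each followed 10 genes, among them the kinase gene Btk (strongest at rank 1355), the microtubule end-binding gene Eb1 (rank 677; 570, 585 and 883), Eip93F, and Pdk1, with strong peaks at ranks 360 and 455 (508, 378 and 514) at separate starts. The others were Svil, Tlk, bbx, grh, shn and ttk. Summits of 1 gene often share a region, as do those of Ptpmeg2 at ranks 173, 1348, 1760 and 6973. The Eip93F summits at ranks 1259 and 6662 also share 1. The SNF4Agamma summit at rank 941 had no summit within 100 bp in replicate 1. The Ptpmeg2 summit at rank 6973 and the Eip93F summit at rank 6662 were each among the strongest in only 1 replicate. Of the 1838 member genes, 839 (45.6%) held a further optimal summit elsewhere in the gene body.

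Summits gathered at the start. The median distance was 11 bp upstream and the median absolute distance 149 bp. Of the members, 851 (34.4%) lay within 100 bp and 1580 (63.8%) within 200 bp of the nearest start of the gene. Upstream summits numbered 1297 (52.4%), downstream ones 1173, and 5 lay on the start itself. In the replicates' own lists the upstream share was 50.3%, 53.0% and 51.6% (mean 51.6% ± 1.35, SD, n = 3). It was 47.4% at the 921 members of single-start genes. By annotation, 873 summits (35.3%) lay in the 5′ UTR of the gene, 793 (32.0%) in an intron, 518 (20.9%) in intergenic sequence, 144 (5.82%) in a coding exon, 110 (4.44%) inside another coding gene, 35 inside a noncoding gene and 2 in the 3′ UTR. A noncoding start lay within 500 bp of 142 members (5.74%).

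The stronger members lay more often upstream. Of the 619 strongest, 58.6% were upstream, against 48.6% of the 619 weakest. By place, members from 300 to 101 bp upstream had a median signal percentile of 54.3 (654 members), those within 100 bp of the start 43.0 (851 members), and those 301 to 500 bp downstream 44.1 (243 members). Members closest to the edge of the rule were SP1029, 500 bp upstream (rank 983), mge, 500 bp downstream (rank 5759), and Pura, 500 bp upstream (rank 8523). Just beyond it lay summits of Mef2, 501 bp from the start (rank 1381), Nedd4, 501 bp (rank 7713), and CG14131, 502 bp (rank 8423). Mef2 was nevertheless a member gene by another summit, at rank 5159.

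**Figure D3:**
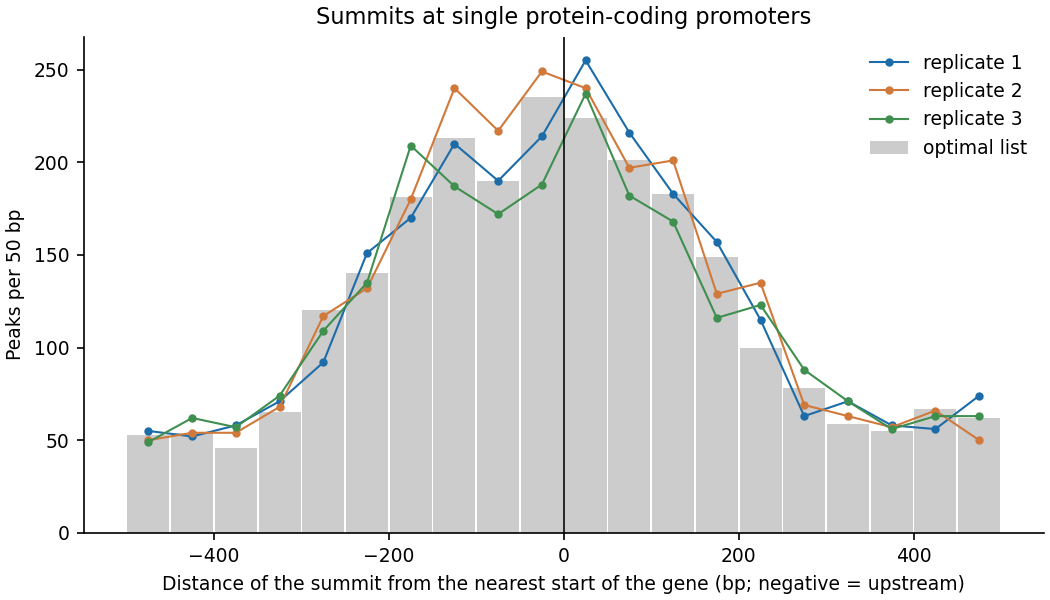
Number of single-promoter summits per 50 bp (vertical axis) by distance from the nearest start of the gene (horizontal axis, bp, negative upstream), with grey bars for the optimal list and coloured lines for the own lists of the replicates. Counts in the optimal list are highest in the 50 bp just upstream of the start (235) and are 53 and 62 in the outermost bins.

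Both strands of the 100 bp on each side of a summit were searched for motifs. The GAGA repeat GAGAGAG was more frequent at single-promoter peaks than in either other class. It lay at 364 members (14.7%), at 4.26% of shared-promoter peaks and at 9.42% of peaks without a coding start. In windows 1000 bp to either side of the members it was at 3.56%. At the outermost starts of the 9731 genes with no other coding start within 500 bp, called lone starts, it was at 4.07% in windows of the same width. In the replicates' own lists the members had 14.5%, 14.99% and 13.9%, against 5.52%, 5.73% and 5.13% at shared promoters and 9.09%, 9.72% and 8.94% at peaks without a coding start. The mean difference was 9.02 percentage points ± 0.225 (SD, n = 3) from shared-promoter peaks and 5.23 ± 0.202 from peaks without a coding start. Most members recurred in each replicate's list, so this SD shows only how far the shares shift between lists. Both differences had the same sign in all 3 replicates. An exact two-sided sign-flip permutation test gave p = 0.25 for both (adjusted p = 0.333 over 32 comparisons between classes). With 3 replicates 0.25 is the smallest value this test can give, so no comparison here can pass 0.05. It was given by 24 of the 32 comparisons, so the same sign in all 3 replicates was the usual outcome.

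The GAGA repeat was more frequent upstream. It was at 20.6% of members 300 to 101 bp upstream of the start, 13.2% of those within 100 bp of it, and 9.82% of those 101 to 300 bp downstream. Of the members with the repeat, 66.5% were upstream of the start. In the 8425 lone starts without an optimal summit, windows centred 200 bp upstream, on the start and 200 bp downstream had it at 3.72%, 3.10% and 1.73%. Among lone outermost starts, 1306 had an optimal summit within 500 bp, and in windows centred on the start these had it at 10.3%, against 3.10% without a summit. Named genes with the GAGA repeat at their strongest member summit included Eip75B, Oscillin, Alh, PRL-1, Eip74EF, Diap1, dpp, kay, chic, Tet, E2f1, Hnf4 and Dscam1. This is not a full list. The exact-repeat member CG1888 also had it. Members with the repeat had a median signal percentile of 53.3, against 46.9 without it.

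The receptor's inverted repeat, with at most 1 mismatch, was rare at promoters. It lay at 59 members (2.38%), of which 10 were exact and 49 had 1 mismatch, at 1.94% of shared-promoter peaks and at 6.08% of peaks without a coding start. It was at 0.545% of windows 1000 bp from the members and at 0.298% of lone starts. In the replicates' own lists the members had 2.15%, 1.91% and 2.86%, and peaks without a coding start had 5.25%, 5.38% and 6.42%. The mean difference between these classes was −3.37 percentage points ± 0.242 (SD, n = 3, exact permutation p = 0.25, adjusted p = 0.333). The classes did not overlap between replicates, but 24 of the 32 comparisons gave this smallest p of the test. The difference from shared-promoter peaks was 0.417 ± 0.533, within the spread between replicates (exact permutation p = 0.5). As a description for base composition, the everted repeat of the same sites was at 0.525% of members and 0.319% of lone starts.

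Members with an inverted repeat were among the stronger ones. Their median signal percentile was 89.2, against 46.9 for members without it. In all 3 replicates 86.4% of them were found, against 64.2% of all members and 95.0% of the 619 strongest. The repeat was at 6.79% of the 619 strongest members and at 0.323% of the 619 weakest. It lay a median of 36 bp from the summit and 210 bp from the start, and only 6 of the 59 lay within 50 bp of a start. The strongest member with an exact repeat was Pfas (2L 6045508–6046573, rank 366; 453, 440 and 314 in the replicates), with the repeat at 6046142–6046154, 29 bp from the summit. CG1888 had rank 558 (780, 505 and 520), Ypel 564 (527, 906 and 462) and Sec16 663 (691, 583 and 716). Fkbp14, a protein folding enzyme of the endoplasmic reticulum, had rank 958 (922, 1060 and 931), SP1029 983 (1287, 830 and 968), the germline differentiation gene bam 1700 (1800, 2006 and 1605), and Jhbp12, of the juvenile hormone binding protein family, 2150 (2549, 2074 and 2226). All 8 belong to the 619 strongest members, and all were found in every replicate. The GAGA repeat and the inverted repeat occurred together at 9 members.

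The single receptor site AGGTCA was at 138 members (5.58%), at 6.98% of shared-promoter peaks and at 8.73% of peaks without a coding start. In windows 1000 bp from the members it was at 6.24%, so the members' share did not exceed that of the sequence beside them, and lone starts held it at 3.24%. The longer sites TAGGTCA and CAAGGTCA, which contain it, were at 0.848% and 0.687% of members and at 0.689% and 0.329% of lone starts. In all, 1948 members (78.7%) had none of the inverted repeat, AGGTCA and GAGAGAG, among them the strong Ptpmeg2 and CG8031 peaks shown above.

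Elements of the core promoter differed in share between summit-centred windows of single-promoter and shared-promoter peaks. The DNA replication-related element TATCGATA was at 1.21% of members, 6.78% of shared-promoter peaks and 5.57% of lone starts. In the replicates it was at 1.55%, 1.56% and 1.08% of members and at 7.05%, 6.10% and 5.13% of shared-promoter peaks. The mean difference was −4.70 ± 0.735 (SD, n = 3, exact permutation p = 0.25, adjusted p = 0.333). The Motif 1 core GGTCACACT, whose first 5 letters are also part of the receptor site, was at 1.05% of members, 4.26% of shared-promoter peaks and 3.59% of lone starts (mean difference −3.59 ± 0.363 from shared-promoter peaks, SD, n = 3; exact permutation p = 0.25). The initiator core TCAGT was at 37.6% of members, 29.3% of shared-promoter peaks and 46.2% of lone starts. Its share was 51.8% for members within 100 bp of the start. The TATA box letters TATAAA were at 17.1% of members, 28.9% of shared-promoter peaks and 29.5% of lone starts. Member windows are centred on summits and lone-start windows on the start, so these shares are not matched in place. How far shared-promoter summits lay from their starts was not measured, so single and shared promoters are not matched in place either. In start-centred windows, lone starts with an optimal summit had TATCGATA at 6.97%, against 5.35% without one. These shares were 5.97% and 3.22% for Motif 1, 50.6% and 45.5% for the initiator core, and 21.4% and 30.7% for the TATA box. Base composition differed from shared promoters as well: G and C made up 46.3% of the sequence within 100 bp of member summits, 41.2% at shared promoters and 46.4% at peaks without a coding start. Its part in the motif shares was not tested.

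Of the remaining motifs, the E-box CAGCTG was at 12.5% of members, 16.1% of shared-promoter peaks and 11.4% of lone starts. The E-box CACGTG was at 2.79% of members and 2.49% of lone starts. The site CAGGTAG of the early embryonic factor Zelda was at 0.848% of members and 1.09% of lone starts.

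**Figure D4:**
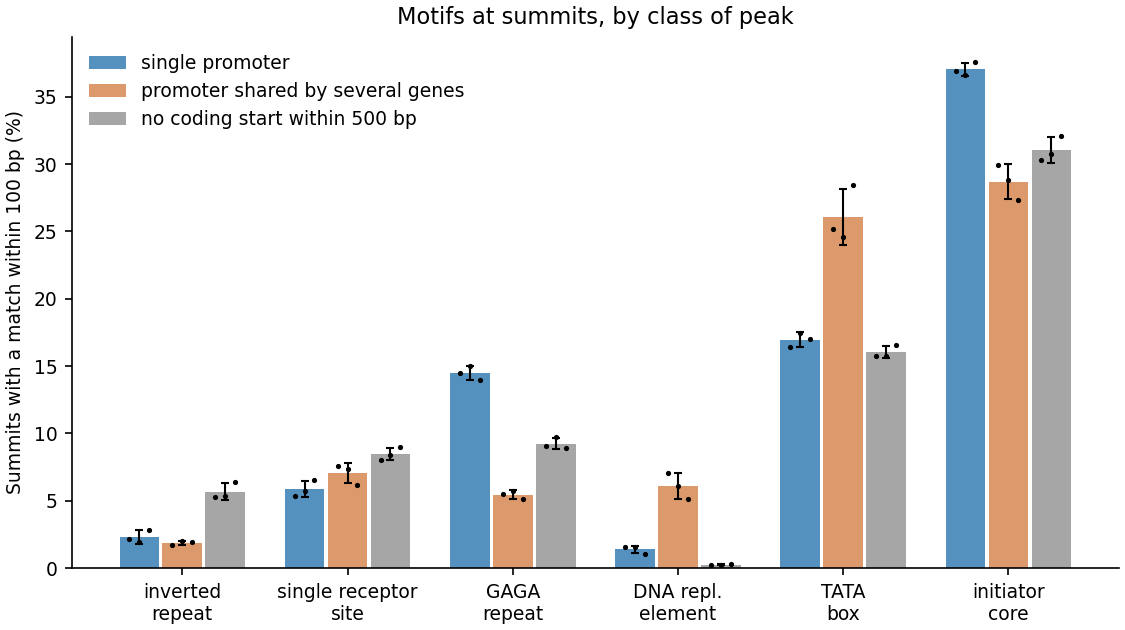
Share of summits with a motif match within 100 bp (vertical axis, %) in single-promoter peaks, shared-promoter peaks and peaks without a coding start within 500 bp; bars are means of the 3 replicates' own lists, error bars SD and dots the replicates. The GAGA repeat is highest at single promoters (14.5% mean), and the DNA replication-related element and the TATA box are highest at shared promoters.

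**Figure D5:**
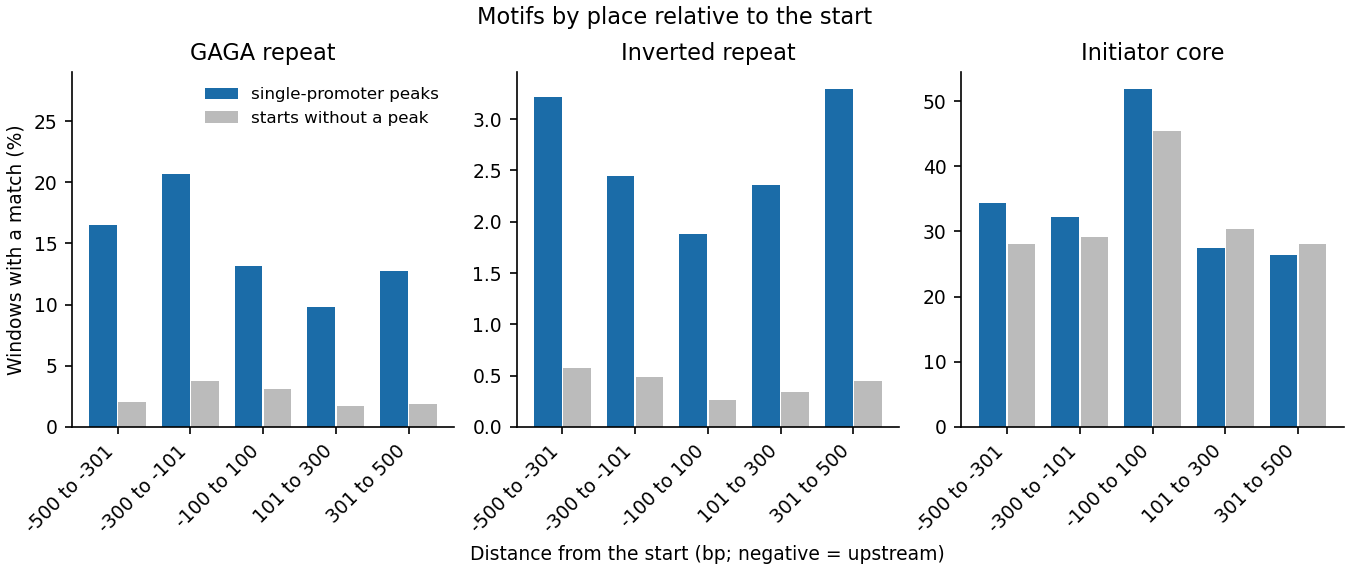
Share of windows with a match (vertical axes, %) by distance from the start in bp (horizontal axes, negative upstream), for single-promoter summits (blue) and for windows at the same distances from 8425 lone starts without an optimal summit (grey). The GAGA repeat reaches 20.6% of members 300 to 101 bp upstream, where the windows without a peak have 3.72%, and the initiator core is highest within 100 bp of the start in both.

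By strength, single-promoter peaks lay between the other classes. Their median signal percentile was 47.6 in the optimal list, against 39.8 for shared-promoter peaks and 51.8 for peaks without a coding start. In replicates 1, 2 and 3 it was 47.5, 48.1 and 47.5 for single-promoter peaks, 39.6, 40.0 and 40.2 for shared-promoter peaks and 52.1, 51.9 and 51.5 for the rest. The classes did not overlap between replicates, whose lists share most of these peaks. The mean difference was 7.77 ± 0.414 from shared-promoter peaks and −4.12 ± 0.403 from peaks without a coding start (SD, n = 3; exact permutation p = 0.25 and adjusted p = 0.333 for each). The first of these was absent among the strongest 4547 peaks of each list, where it was −0.077. Raw signals of the members ran from 358 to 10903 with a median of 605, and widths from 119 to 5765 bp with a median of 535 bp. Regions with several summits held 740 members (29.9%).

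A summit within 100 bp among the strongest 9095 of all 3 replicates was found for 1588 members (64.2%), close to the 66.2% of all optimal peaks. The share was 57.4% for shared-promoter peaks and 67.8% for peaks without a coding start. It was found in 2 replicates for 635 members, in 1 for 227 and in none for 25. By replicate, 83.7%, 84.9% and 84.4% of members recurred, against 81.6%, 84.1% and 77.9% of shared-promoter peaks. The mean difference of 3.12 percentage points ± 2.96 (SD, n = 3; exact permutation p = 0.25) came largely from replicate 3 and was 1.45 without it. From peaks without a coding start the difference was −1.16 ± 1.94, within the spread (exact permutation p = 0.5). These shares describe the optimal list, which itself rests on the same replicates, and are no independent check. Recurrence was 95.0% for the 619 strongest members and 13.7% for the 619 weakest. The cut to each replicate's 9095 strongest peaks builds in such a trend, because weak optimal peaks lie near it. Pura, at rank 8523, had summits within 100 bp at ranks 11296, 9908 and 10332 in replicates 1, 2 and 3, and counted as recurring in 0. Across members present in both lists of a pair, which are not independent replicates, ranks had a Spearman rho of 0.832 between replicates 1 and 2 (2278 members), 0.752 between 1 and 3 (2264) and 0.741 between 2 and 3 (2274).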

How the data were processed

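Per the deposited notes, the authors made a dm6 peak list for each replicate from its alignment and a control alignment, then an optimal list by the irreproducible discovery rate, which keeps peaks whose ranks repeat between replicates. Not given in the sources used here: the aligner, the caller, their settings and the depth. The control was not used here. The authors' deposited signal per peak, used only as a rank, and the deposited peak start, end and summit offset were taken as they stand. Each replicate list holds 30000 peaks and was cut to its 9095 strongest. Starts came from Ensembl release 115 and sequence from RefSeq, both of the same assembly as dm6. Summits within 100 bp counted as shared. The promoter width of 500 bp, the windows of 100 bp and at most 1 mismatch to the inverted repeat were varied as given in the closing section. Classes were compared over the 3 replicates by an exact two-sided sign-flip permutation test. Peaks and genes are not replicates, and whether replicates differ beyond technical spread is known only from the labels, which call them biological. Named genes are the 15 strongest members, up to 3 per list, 8 with an inverted repeat, those with most summits and those next to the distance limit. The ecdysone response genes, the further nuclear receptors, PRL-1 and genes tied at 5 summits were added after their values were seen. Members and lists were chosen with earlier results of these data known. Of the 353 symbols given one by one, 9 were matched through an older symbol and 0 were unmatched. The programs were checked on simulated data. Tools were Python 3.11.15, numpy 2.4.6, pandas 2.3.3, scipy 1.17.1 and matplotlib 3.10.9.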

Additional observations from a re-analysis of the deposited data

How the results depend on the processing

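The share of single-promoter peaks was 22.1% with promoters of 250 bp, 32.1% with 1000 bp and 25.8% in the strongest 4547 peaks, which left 947 genes with a member. In those 4547 peaks, 56.1% of members were upstream, and with only the outermost start of each gene 40.7% were. Recurrence in all replicates was 45.6% with summits within 50 bp, 73.1% within 200 bp, 65.5% with promoters of 1000 bp and 66.2% in the strongest 4547 peaks, and between 71.6% and 74.1% when 1 replicate was left out and only the other 2 had to agree. In the strongest 4547 peaks, 2 differences from shared-promoter peaks changed sign, the signal percentile (−0.077, exact permutation p = 1) and the inverted repeat (−0.215 percentage points, exact permutation p = 0.75). The causes were not tested. Of 100 alternative values, the other 85 kept their direction or, where no test applied, moved by less than the spread between replicates or within 1.5 times. The inverted repeat's difference from peaks without a coding start was −0.210 with 0 mismatches and −10.3 with 2. The GAGA difference from shared promoters was 5.03 in windows of 50 bp and 14.1 in windows of 200 bp. Of 198 counts for gene lists, 50 moved by over 1.5 times. No paired analysis was possible because the samples form 1 group. Depth is unknown, so weak peaks missing from a replicate cannot be called absent.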

Other observations

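Genes from lists of tissue markers also carried single-promoter peaks, although binding in whole pupae names no cell type. Fat body genes had a peak at 7 of 16 (43.8%), led by the phosphatidate phosphatase gene Lpin (rank 1293; 1297, 1805 and 1166 in replicates 1, 2 and 3), the lipid droplet gene Lsd-1 (rank 1788; 1485, 2046 and 1903) and the triglyceride synthesis gene mdy (rank 2123), which had no summit within 100 bp in replicate 3. Neuron genes had 4 of 18 (22.2%), led by Dscam1 (rank 1249; 1444, 1541 and 1150), the tyrosine hydroxylase gene ple (rank 2098; 2133, 2302 and 2275) and elav (rank 4935). Haemocyte genes had 2 of 14 (14.3%), srp (rank 4832) and ush (rank 6044), and muscle genes 3 of 22 (13.6%), Zasp52 (rank 1587), Mlp60A (rank 4491) and Mef2 (rank 5159). Over all eligible genes the share was 13.6%. Per 100 kb of eligible sequence, neuron genes held 13.1 peaks, haemocyte genes 14.2 and muscle genes 9.70, all below the 18.5 of all eligible genes, while fat body genes held 44.5. With promoters of 250 bp the neuron share was 11.1% and the haemocyte share 7.14%, against 12.3% of all eligible genes, and in the strongest 4547 peaks the haemocyte count was 0. The haemocyte count was 1 on peaks that recurred without replicate 1 or without replicate 2 (7.14%, against 10.6% and 10.4% of all eligible genes).

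Large gene families of the cuticle, the gut and the senses had few such peaks. Cuticle protein genes had 7 of 121 (5.79%), led by Cpr97Ea (rank 2760; 2853, 2107 and 3597), Cpr51A (rank 2914) and Cpr100A (rank 3901). Gut enzymes had 1 of 39 (2.56%), the maltase gene Mal-A5 (rank 2078; 3123, 1978 and 1921). Chemoreceptors had 2 of 116 (1.72%), the odorant receptor gene Or67a, whose peak was strong in every replicate (rank 117; 119, 109 and 127), and Gr93a (rank 8681; 13971, 7722 and 7663). The chemoreceptor count was 1 without replicate 2 or without replicate 3 (0.862%, against 10.4% and 10.8% of all eligible genes).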
